A study of Mus musculus with 12 samples.

Results

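The genes described here are the inhibitors of cyclin-dependent kinases (CDKs) together with p53, its ligase Mdm2 and the retinoblastoma protein Rb1. The 10 genes were taken by name from the deposited table of 23420 genes: Cdkn2a, Cdkn2b, Cdkn2c and Cdkn2d of the Ink4 family, Cdkn1a, Cdkn1b and Cdkn1c of the Cip/Kip family, Trp53, Mdm2 and Rb1. RNA was sequenced from cells sorted as monocytic myeloid-derived suppressor cells (M-MDSCs) by a CD11b+Ly6G-Ly6Chi gate from the bone marrow of male C57BL/6JNIA mice. There were 6 aged mice of 24 months and 6 young mice of 6 months, with no treatment or engineered allele named in the labels, and each mouse gave 1 library. The labels give the tissue as tibia and the cell type as bone marrow, and the sort gate and the sex come from the study's methods.

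CDKs with their cyclins drive a cell from growth into DNA replication by phosphorylating Rb1, which otherwise holds E2F transcription factors inactive. Ink4 proteins bind CDK4 and CDK6 and keep D-type cyclins off, whereas Cip/Kip proteins bind whole cyclin and CDK complexes, those of CDK2 above all. p53 switches on Cdkn1a after DNA damage, and Mdm2 marks p53 for destruction and is itself a p53 target. Cdkn2a encodes p16Ink4a and, from an upstream first exon, p19Arf, which blocks Mdm2. Rising Cdkn2a and Cdkn1a transcripts are widely used as marks of cellular senescence in aging tissue, and in marrow these genes also time the exit of myeloid cells from the cell cycle.

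Between 8737941 and 16300374 fragments were counted on genes in an aged library and between 4613239 and 9079237 in a young one. Levels are given as CPM, counts scaled to a common library total (counts per 1e6) after scaling with the trimmed mean of M-values (TMM), whose factors lay between 0.919 and 1.10. A count of 3 stood for 0.188 to 0.349 CPM in aged and for 0.305 to 0.642 CPM in young libraries, so that low levels were read less precisely in young mice. The markers did not match a purely monocytic sample. Per kilobase of exon, 13 neutrophil markers summed to 173794 to 217546 CPM in the aged libraries and 85831 to 164313 in the young ones, against 1365 to 1792 and 1295 to 1535 for 10 monocyte markers. S100a8 and S100a9, of 392 and 488 bases, carried most of the neutrophil sum per kilobase. As summed CPM this list overlapped between the ages (121014 to 144096 in aged and 77888 to 121267 in young libraries). The paper's M-MDSC score also includes S100a8, S100a9, Cxcr2 and Retnlg. Of the 10 monocyte markers 2 were called higher and 1 lower in aged mice, beside 22.4% higher and 23% lower of all genes tested. Ly6c2, which encodes a form of Ly6C, had 726 CPM on average in aged and 500 in young mice (edgeR adjusted p = 0.00265), and Ly6c1 was also called higher. Itgam, which encodes CD11b, had 2891 and 3371 CPM (edgeR adjusted p = 0.0285). Ccr2, at 31.2 and 37.1 CPM, and Csf1r, at 141 and 134, were not called. Single mice differed widely in some monocyte markers. Ccr2 ran from 5.02 to 61.9 CPM in aged and from 23.9 to 54.6 in young mice. F13a1, also not called, ran from 2.56 to 44.0 and from 17.6 to 39.1 CPM. The calls of Ly6c2, Ly6c1 and Itgam were lost once the trend of fold change with gene length was removed (the length correction). Markers of other cell types also differed between the ages. All 9 macrophage markers tested and 8 of 12 neutrophil markers tested were called higher in aged mice, beside 22.4% of all genes tested. The summed CPM of the macrophage list was 660 to 1685 in aged and 418 to 592 in young mice. Of 3 progenitor markers tested, Hlf (log2 fold change -0.61) and Cdk6 (-0.55) were called lower, as was Clec9a (-2.45, edgeR adjusted p = 2.89e-05) of 2 dendritic cell markers tested. The other tested markers of these lists, Kit (0.06) and Itgax (0.05), were not called. The summed CPM of each of these lists overlapped between the ages. Aged replicate 1 had the highest sum of all aged libraries in 7 of 12 marker lists, those of macrophages, stroma and endothelium, erythroid, B, plasma, T and NK cells and megakaryocytes (21.2 CPM for the last, against a median of 3.69 in aged mice). The summed CPM of 9 stroma and endothelium markers was 19.5 to 112 in aged and 11.1 to 21.1 in young mice, with 2 of 3 tested called higher. Erythroid markers had too few counts for the test, but their sum did not overlap between the ages (1.71 to 16.6 CPM in aged mice and a median of 0.818 in young mice), with Hba-a1 and Hba-a2 at 0 in every library. In bulk RNA, fewer cells of a type and less RNA per cell cannot be told apart. The sample numbers in the alignment file names ran below those of the aged libraries in every young library, so the order of preparation, if it followed them, and age cannot be told apart.

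Cdkn2d and Cdkn1b were called higher in the aged libraries, Rb1 was called lower, and Cdkn1a, Cdkn2c, Trp53 and Mdm2 were not called. Cdkn1c, Cdkn2a and Cdkn2b had too few counts for the test. The test was edgeR's quasi-likelihood test with Benjamini-Hochberg adjustment over all 9742 genes with enough counts, and a gene was called where the adjusted p was under 0.05. Of the 7 genes tested, 3 were called (42.9%), against 45.4% of all genes tested, so the share of called genes was close to the background. With 1 mouse left out, 1 to 3 of the 7 were called, beside 38.8% to 48.1% of all genes tested in those fits. All 3 calls remained without aged replicate 1, 2 or 7 or young replicate 1, 2 remained without young replicate 9 or 10, and Cdkn2d alone was called in the other 6 fits. Higher calls made up 22.4% and lower calls 23% of all genes tested. The CPM of the ages did not overlap for 1 of the 7, Cdkn2d, against 21.8% of all genes tested.

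**Figure D1:**
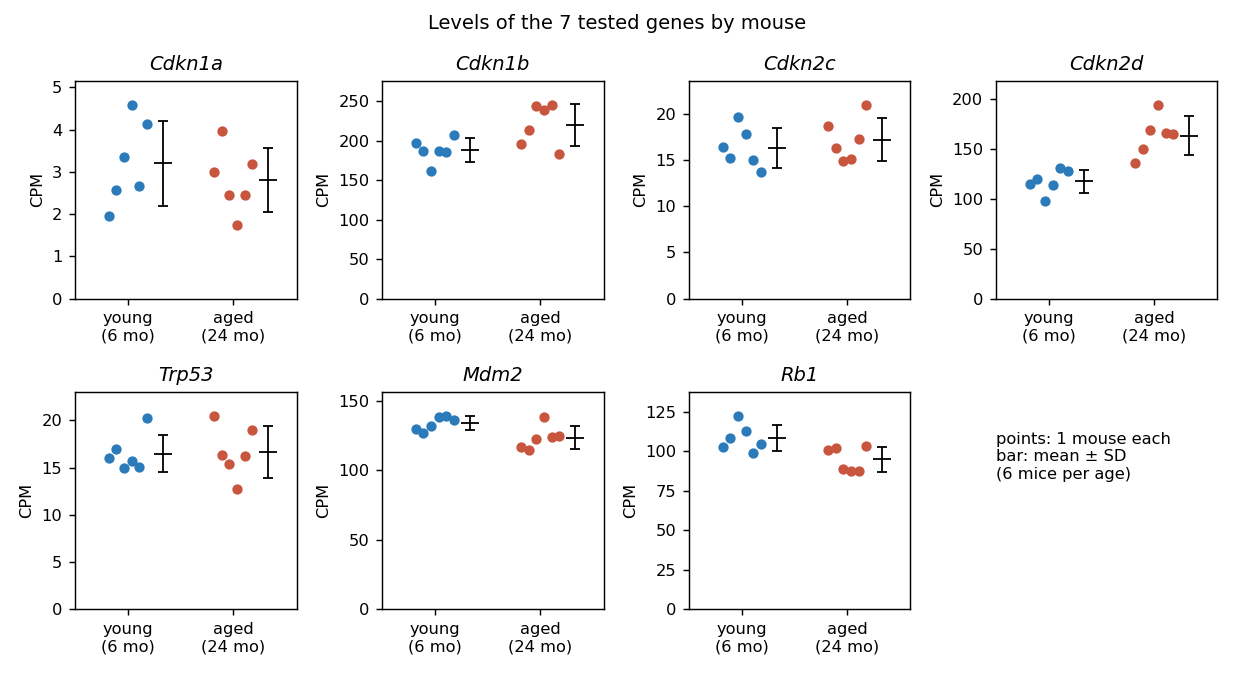
CPM of the 7 tested genes in each mouse, young (6 months) on the left and aged (24 months) on the right of each panel, with the mean and SD of 6 mice beside the points and axes that start at 0. The 6 aged points of Cdkn2d lie above all young points (136 to 194 against 97.5 to 130 CPM), whereas the points of the other 6 genes overlap between the ages.

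The upstream sequences of the 2 genes called higher, Cdkn2d and Cdkn1b, are shown because both moved the same way, and that of Cdkn1a because it is the classical p53 target among the 10. Each is the 250 bases before a transcription start in the RefSeq promoters of GRCm38.p6, the assembly of mm10, written 5′ to 3′ on the gene's strand. Capitals mark GC boxes (GGGCGG), the shorter box CCAAT and p53 decamers (the 10-base unit that occurs in pairs in p53 response elements), each searched on both strands. The TATA box (TATAAA), the cell cycle element (TTTGAA) and a pair of E2F sites (first TTTCGCGC, second TTTGGCGC) were searched too. Of the 10 genes, 8 matched an entry of the table, and Cdkn1c and Rb1 did not.
Cdkn2d, chr9:21291210-21291459, minus strand: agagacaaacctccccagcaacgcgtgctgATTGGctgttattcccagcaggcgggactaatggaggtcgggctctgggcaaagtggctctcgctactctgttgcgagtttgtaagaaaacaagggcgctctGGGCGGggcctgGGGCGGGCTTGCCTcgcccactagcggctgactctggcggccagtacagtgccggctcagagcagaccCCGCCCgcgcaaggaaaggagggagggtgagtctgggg
Cdkn1b, chr6:134920151-134920400, plus strand: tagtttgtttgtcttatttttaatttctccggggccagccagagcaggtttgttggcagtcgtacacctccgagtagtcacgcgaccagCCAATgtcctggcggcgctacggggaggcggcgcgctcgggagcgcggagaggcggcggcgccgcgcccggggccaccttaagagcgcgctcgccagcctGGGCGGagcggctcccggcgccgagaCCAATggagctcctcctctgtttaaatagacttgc
Cdkn1a, chr17:29090729-29090978, plus strand: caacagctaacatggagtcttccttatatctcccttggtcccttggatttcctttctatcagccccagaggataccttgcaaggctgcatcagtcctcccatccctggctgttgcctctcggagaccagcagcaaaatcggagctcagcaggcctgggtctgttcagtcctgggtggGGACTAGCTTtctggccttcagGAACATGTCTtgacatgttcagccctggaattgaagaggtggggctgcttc
The Cdkn2d window is 63.6% G and C and held 3 GC boxes, from bases -118, -106 and -38, with the start site counted as the first base after -1. It also held a CCAAT box from -220 and a p53 decamer from -102 to -93, which shares its first bases with the second GC box. The Cdkn1b window held 1 GC box from -61 and CCAAT boxes from -161 and -35. The Cdkn1a window, before the more upstream of the gene's 2 starts, held p53 decamers from -73 to -64 and from -51 to -42 and no GC box. The bases right after the second decamer match the pattern except at their first base and are not marked. The window before the other start, not shown, held GC boxes from -104 and -46 and no p53 decamer. None of the 3 windows held a TATA box, the cell cycle element or either E2F site. Among all 32851 promoter windows of the same length, 32.7% held a GC box, 33.8% a CCAAT box, 7.13% a p53 decamer, 16% the cell cycle element, 12.4% the TATA box and 0.256% and 0.417% the first and the second E2F site, so GC and CCAAT boxes are common. A match of letters is a description and not a site of binding.

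Cdkn2d, which encodes p19Ink4d, an inhibitor of CDK4 and CDK6, showed the clearest difference of the 10 genes. It lies on chromosome 9 of mm10 (chr9:21288464-21291209, minus strand, 2 exons of 1270 bases in all), and its exons overlap no other gene of the table. In aged mice the lowest, median and highest levels were 136, 165 and 194 CPM, and in young mice 97.5, 117 and 130 CPM, from 559 to 2629 counts per mouse. Every aged mouse was above every young mouse. The means were 163 ± 19.6 CPM (SD, n = 6) in aged and 117 ± 11.8 (SD, n = 6) in young animals, for a log2 fold change of 0.47 (SE 0.0886, edgeR adjusted p = 0.000771). That is a 1.39-fold higher level with a 95% interval of 1.22 to 1.58. Cdkn2d was called in 12 of 12 fits that each left out 1 mouse, with log2 fold changes of 0.42 to 0.52, and without aged replicate 1 it was 0.52 (edgeR adjusted p = 0.000461). Only the correction for gene length ended the call, at a log2 fold change of 0.21 (edgeR adjusted p = 0.0517).

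Its family differed widely in level. Cdkn2c, which encodes p18Ink4c, another inhibitor of CDK4 and CDK6, lies on chromosome 4 (chr4:109660876-109665372, minus strand, 2 exons, 1106 bases). Its lowest, median and highest levels were 14.8, 16.8 and 20.9 CPM in aged and 13.7, 15.8 and 19.6 CPM in young mice. The ages overlapped over most of their range. The log2 fold change was 0.08 (SE 0.113, 95% interval -0.16 to 0.32, edgeR adjusted p = 0.600), and its sign turned without TMM factors (-0.01), after the length correction (-0.25) and with a replicate block (-0.05).

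Cdkn2a and Cdkn2b, neighbours on chromosome 4, were at the limit of detection. Cdkn2a (chr4:89274473-89294619, minus strand, 4 exon blocks, 1136 bases) lies 11670 bases from Cdkn2b (chr4:89306289-89311032, minus strand, 2 exons, 1393 bases), which encodes p15Ink4b. A count for Cdkn2a cannot be split between p16Ink4a and p19Arf in a table by gene. Cdkn2a had 5 counts in aged replicate 7 and 0 in the other 5 aged mice, and 1 count in each of 2 young mice and 0 in the other 4. Summed over the mice of an age this was 5 counts in aged and 2 in young mice, a ratio of library-scaled rates of 1.79 with an exact interval of 0.292 to 18.8 that covers counting error only. The exact permutation test of mean CPM over the mice was not passed (two-sided, p = 1). A difference in Cdkn2a between the ages was therefore not detectable at this depth, and the interval leaves room for changes of several fold in either direction. Cdkn2b had 0, 1, 3, 0, 1 and 1 counts in the aged mice and 1, 1, 0, 0, 1 and 2 in the young mice. The ratio of rates was 0.857 (exact interval 0.218 to 3.55, exact permutation p = 0.671, two-sided).

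Cdkn1b, which encodes p27Kip1, a brake on CDK2 that is high in resting cells, was the second gene called higher. It lies on chromosome 6 (chr6:134920401-134925525, plus strand, 3 exons, 2405 bases). Its lowest, median and highest levels were 183, 226 and 245 CPM in aged and 162, 187 and 207 CPM in young mice. Of the 6 aged mice, 4 were above every young mouse, and aged replicates 1 and 7, at 196 and 183 CPM, were within the young range. The means were 220 ± 26.4 CPM (SD, n = 6) and 188 ± 15.2 (SD, n = 6), a log2 fold change of 0.23 (SE 0.0841, edgeR adjusted p = 0.0368) or 1.17-fold (95% interval 1.04 to 1.33). The call was lost without any one of aged replicates 4, 5 and 6 or young replicates 2, 5, 6 and 9 (log2 fold change 0.19 to 0.23, edgeR adjusted p = 0.0581 to 0.0850). It was also lost without TMM factors, at 0.14 (edgeR adjusted p = 0.106), without a filter, with the replicate block and after the length correction, at 0.18 (edgeR adjusted p = 0.104).

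Cdkn1a, which encodes p21, the p53-induced inhibitor used as a senescence mark, was at a low level and was not called. The gene is on chromosome 17 (chr17:29090986-29100722, plus strand, 4 exon blocks, 2026 bases). Its lowest, median and highest levels were 1.75, 2.73 and 3.96 CPM in aged and 1.95, 3.01 and 4.58 CPM in young mice, from 10 to 51 counts per mouse. The young range held 5 of the 6 aged values. The means were 2.80 ± 0.756 CPM (SD, n = 6) and 3.21 ± 1.01 (SD, n = 6). The log2 fold change was -0.23 (SE 0.236, 95% interval -0.73 to 0.27, edgeR adjusted p = 0.441), so the upper end of the interval corresponds to a 1.21-fold higher level in aged mice. It was not called in any alternative or with any mouse left out, where the log2 value ran from -0.34 without aged replicate 2 to -0.10 without young replicate 6.

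Cdkn1c, which encodes p57Kip2, a maternally expressed imprinted gene tied to stem cell rest, had few counts. It lies on chromosome 7 (chr7:143458339-143461050, minus strand, 4 exon blocks, 1942 bases). The aged mice had 9, 4, 6, 7, 12 and 3 counts and the young mice 0, 2, 0, 5, 5 and 2. All 6 aged mice and 4 of 6 young mice had at least 1 count, from larger libraries in the aged group. The means were 0.679 ± 0.347 CPM (SD, n = 6) in aged and 0.292 ± 0.253 (SD, n = 6) in young mice (exact permutation test, two-sided, p = 0.0519, with 0.00216 as the smallest p that 6 against 6 mice allow). The ratio of summed rates, 41 against 14 counts, was 2.09 with an exact interval of 1.12 to 4.16 for counting error only. In the edgeR fit without a filter the log2 fold change was 1.11 (adjusted p = 0.196, over 15827 genes), and DESeq2 gave an adjusted p of 0.170, where the fits called 28.2% and 37.2% of all genes they tested. In 1 draw that brought every library down to the smallest total, the difference of mean CPM was 0.128 (exact permutation p = 0.297) in place of 0.387. The exact permutation p with 1 mouse left out ran from 0.0130 to 0.106 and was under 0.05 in 4 of 12 cases.

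**Figure D2:**
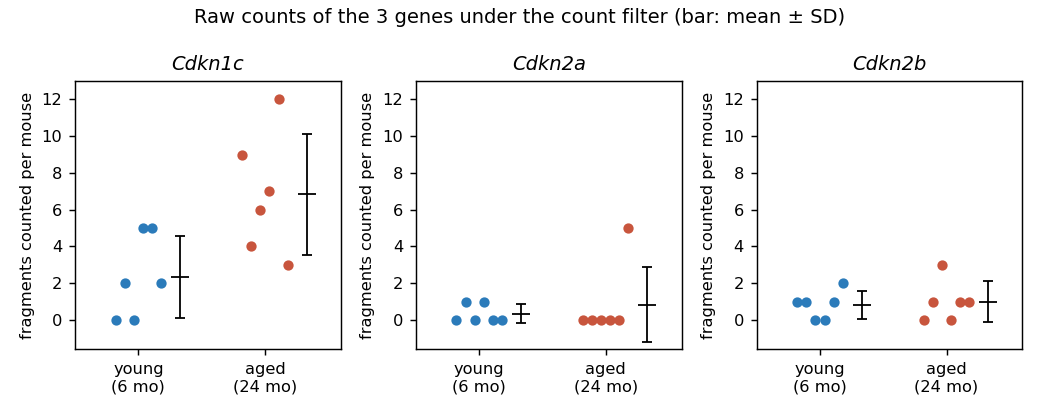
Raw fragment counts of Cdkn1c, Cdkn2a and Cdkn2b in each mouse, with the mean and SD of 6 mice beside the points. Aged mice had 3 to 12 counts of Cdkn1c and young mice 0 to 5, and the single high Cdkn2a point is aged replicate 7 with 5 counts.

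Trp53, which encodes p53, was not called, and its means differed by less than the spread of the mice. The gene lies on chromosome 11 (chr11:69580359-69591873, plus strand, 11 exons, 1868 bases). Its lowest, median and highest levels were 12.7, 16.2 and 20.5 CPM in aged and 14.95, 15.8 and 20.2 CPM in young mice. The log2 fold change was 0.02 (SE 0.119, 95% interval -0.23 to 0.27, edgeR adjusted p = 0.902), with means of 16.7 ± 2.72 and 16.5 ± 1.98 CPM (SD, n = 6 each). Its sign turned without TMM factors, after the length correction and with aged replicate 1 or 7 or young replicate 5 or 9 left out. Wrap53, the neighbour on the other strand 1035 bases away, had a log2 fold change of -0.03 (edgeR adjusted p = 0.869).

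Mdm2, which encodes the ubiquitin ligase that restrains p53, was at a 0.923-fold level in aged mice (95% interval 0.847 to 1.01) and was not called. On mm10 it spans part of chromosome 10 (chr10:117688905-117710716, minus strand, 12 exons, 3027 bases). Its lowest, median and highest levels were 114, 123 and 138 CPM in aged and 127, 134 and 139 CPM in young mice. All aged mice other than replicate 5 were below the lowest young mouse. The means were 124 ± 8.32 and 134 ± 4.97 CPM (SD, n = 6 each), a log2 fold change of -0.12 (SE 0.0585, 95% interval -0.24 to 0.01, edgeR adjusted p = 0.119). Without TMM factors it was -0.20 and called (edgeR adjusted p = 0.00818).

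Rb1, the pocket protein that Ink4 and Cip/Kip inhibitors keep active, was called lower in aged mice. It lies on chromosome 14 (chr14:73195502-73325791, minus strand, 27 exons, 4625 bases), and Lpar6 lies in an intron on the other strand. Its lowest, median and highest levels were 87.4, 94.8 and 104 CPM in aged and 99.2, 106 and 122 CPM in young mice. Aged replicates 4, 5 and 6 were below every young mouse, and aged replicates 1, 2 and 7, at 101 to 104 CPM, were within the young range. The means were 95.1 ± 7.89 and 108 ± 8.29 CPM (SD, n = 6 each), a log2 fold change of -0.19 (SE 0.0712, 95% interval -0.34 to -0.04, edgeR adjusted p = 0.0424), or 0.878-fold. The call was lost without any one of aged replicates 4, 5 and 6 or young replicates 2, 5, 6 and 10 (log2 fold change -0.20 to -0.15, edgeR adjusted p = 0.0521 to 0.102). It was also lost with upper quartile factors, without a filter, with the replicate block and after the length correction, at -0.02 (edgeR adjusted p = 0.796).

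**Figure D3:**
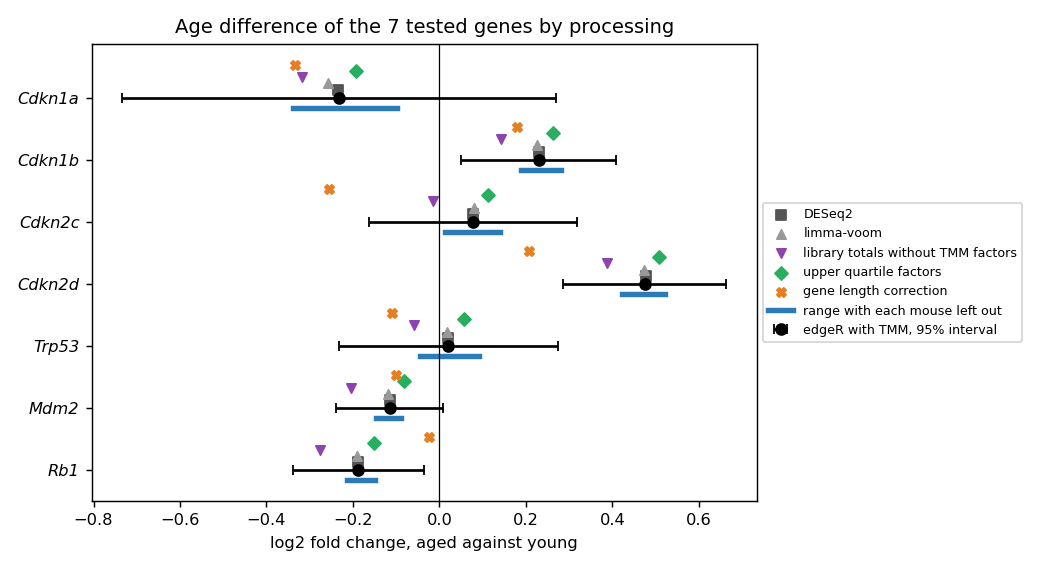
Log2 fold change (aged against young) of the 7 tested genes, with the edgeR estimate and its 95% interval in black, the range over 12 fits that each left out 1 mouse as a blue bar and 5 other settings as symbols. Cdkn2d was above 0 in all of them, from 0.21 after the length correction to 0.52 without aged replicate 1, and the length correction moved Rb1 from -0.19 to -0.02 and Cdkn2c from 0.08 to -0.25.

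Fold changes fell with exon length across all genes tested (Spearman's rho = -0.48 over 9742 genes, which are not independent replicates), with a median exon length of 2890 bases. Cdkn2d, at 1270 bases, was shorter than this and Rb1, at 4625, longer. After the correction none of the 7 genes was called by edgeR, 2 had an unadjusted p under 0.05, and 34.8% of all genes tested were called. The part of gene length in the age differences was not tested further.

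Per kilobase of exon, the order of the 10 genes was the same in both ages. In aged mice the mean levels were 128 CPM per kilobase for Cdkn2d, 91.4 for Cdkn1b, 40.8 for Mdm2, 20.6 for Rb1, 15.5 for Cdkn2c, 8.92 for Trp53, 1.38 for Cdkn1a, 0.350 for Cdkn1c, 0.0711 for Cdkn2b and 0.0459 for Cdkn2a. The young means were 92.4, 78.0, 44.2, 23.4, 14.7, 8.81, 1.58, 0.150, 0.0911 and 0.0463 in the same order. Neighbours in the order were apart in every mouse of an age, except Cdkn1c, Cdkn2b and Cdkn2a, whose ranges overlapped in both ages, and Cdkn2d and Cdkn1b, whose ranges overlapped in young mice. Over all mice, the level of Cdkn2d per kilobase was above that of 94.8% of the genes tested and that of Cdkn1b above 93.0%, whereas Trp53 was above 51.1% and Cdkn1a above 14.2%. Each inhibitor family was thus mostly 1 transcript. Cdkn1b made up 98.1% ± 0.501 of the Cip/Kip level per kilobase in aged and 97.8% ± 0.663 in young mice (SD, n = 6 each). Cdkn2d made up 89.0% ± 2.08 of the Ink4 level in aged and 86.0% ± 2.79 in young mice (SD, n = 6 each, exact permutation test, two-sided, p = 0.0563).

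Among mice of the same age, Cdkn2d and Cdkn1b were low where Rb1 was high. The correlations were taken over 12 mice after the mean of each age was removed, in 21 pairs of the 7 tested genes, with exact permutation within an age and adjustment over the pairs. For Cdkn2d and Rb1, Pearson's r was -0.79 (exact p = 0.00359, adjusted 0.0261) and Spearman's rho -0.77 (exact p = 0.00979), and r was -0.70 in aged and -0.90 in young mice. Without the 2 mice farthest from the median it was -0.67. For Cdkn1b and Rb1, r was -0.86 (exact p = 0.00373, adjusted 0.0261) and rho -0.54 (exact p = 0.0961), with r of -0.93 in aged and -0.76 in young mice and -0.75 without the 2 farthest mice. For Cdkn1b and Cdkn2c, r was -0.82 (exact p = 0.00238, adjusted 0.0261) and rho -0.57 (exact p = 0.0777), with r of -0.85 and -0.81 within the ages and -0.60 without the 2 farthest mice. These were the 3 pairs past the adjusted threshold, and the rank correlation passed an unadjusted 0.05 only for Cdkn2d and Rb1 among them.

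The same mice differed in their TMM factor, by which the CPM are divided. A negative correlation with the factor is thus partly built in, and the permutation p-values below do not allow for this. Within an age the log2 factor correlated with Cdkn2d at r = -0.90 (exact permutation p = 6.37e-05, adjusted 0.00178 over 28 relations of the 7 genes with the factor and 3 marker lists; rho = -0.91, exact p = 0.000486; -0.79 without the 2 farthest mice). For Rb1 it was 0.81 (exact permutation p = 0.00101, adjusted 0.0142; rho = 0.80, exact p = 0.00624; 0.70 without the 2 farthest mice) and for Cdkn2c 0.78 (exact permutation p = 0.00484, adjusted 0.0452; rho = 0.71, exact p = 0.0202; 0.68 without the 2 farthest mice). Cdkn1b followed the factor at r = -0.70 without passing the adjusted threshold (exact permutation p = 0.00794, adjusted 0.0556; rho = -0.63, exact p = 0.0482; -0.49 without the 2 farthest mice). No relation with the summed monocyte, neutrophil or macrophage markers passed the adjusted threshold. Itgam, at 2891 CPM in aged and 3371 in young mice, was most of the monocyte sum (medians 3816 and 4211). Slc40a1, at 540 and 435 CPM, was most of the macrophage sum (medians 759 and 555). The relations with these sums thus say little about the other markers of the 2 lists. For Cdkn2d and the neutrophil markers r was 0.60 (exact permutation p = 0.0220, adjusted 0.123; rho = 0.60, exact p = 0.0619), with 0.23 in aged and 0.87 in young mice. The part of the factor and of the markers in the age differences was not tested.

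The genes whose levels were most like those of Cdkn2d within an age were Ifitm6 (r = 0.95), Lrg1 (r = 0.95) and Ccnd3 (r = 0.94), the last of which encodes cyclin D3, the partner of CDK4 and CDK6. Those most like Rb1 were Mphosph9 (r = 0.96), Ticrr (r = 0.95), a factor of replication initiation, and E2f7 (r = 0.95), a repressive E2F. Those most like Cdkn1b were Rab5b (r = 0.95), Pygo2 (r = 0.93) and Stk17b (r = 0.93). These are the highest 3 of all genes tested for each, over 12 mice that share the same libraries and scaling, and are a description only.

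**Figure D4:**
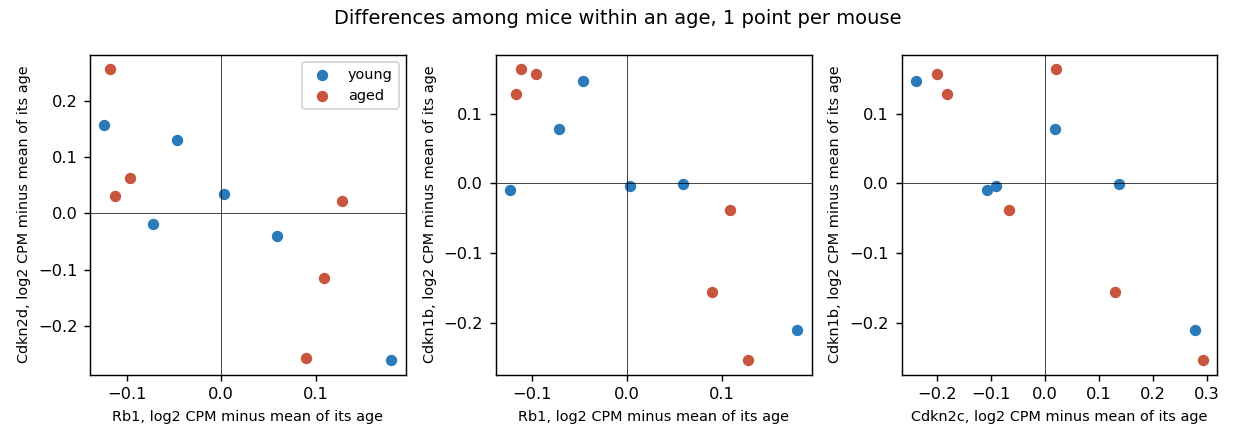
Log2 CPM of 3 pairs of genes minus the mean of the mouse's age, 1 point per mouse, young in blue and aged in red. In each panel the points run from upper left to lower right, with r of -0.79 for Cdkn2d and Rb1, -0.86 for Cdkn1b and Rb1 and -0.82 for Cdkn1b and Cdkn2c.

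The partners and targets of these genes were taken by name as 9 lists, each given here by its counts beside the 45.4% of all genes called. Of 24 tested p53 target genes 9 were called higher and 6 lower (62.5% called), with a median log2 fold change of 0.22 against 0.01 for all genes tested. Pmaip1, which encodes the pro-apoptotic Noxa, rose most, from 8.38 ± 1.57 CPM (SD, n = 6) in young to 19.1 ± 5.49 (SD, n = 6) in aged mice (log2 fold change 1.18 by edgeR, adjusted p = 0.000663). Ccng1, which encodes cyclin G1, rose by 0.32 log2 units (edgeR adjusted p = 0.00652) with no overlap between the ages. Plk3, a stress kinase, fell from 132 ± 57.7 to 65.7 ± 27.7 CPM (log2 fold change -1.03 by edgeR, adjusted p = 0.0128), a call lost with the replicate block. The targets thus moved in both directions while Trp53 itself, Cdkn1a and Mdm2 were not called.

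Of 17 tested p53 regulators 9 were called lower and 0 higher (52.9% called), with a median of -0.46. After the length correction 4 were called lower. Prkdc, the catalytic subunit of the DNA-dependent protein kinase, had the largest fall, from 15.8 ± 2.54 to 7.78 ± 1.94 CPM (SD, n = 6 each, log2 fold change -1.02, edgeR adjusted p = 0.000249), and was at -0.34 (edgeR adjusted p = 0.0468) after the length correction. Mdm4, the partner of Mdm2 that blocks p53 activity, fell from 154 ± 50.6 to 77.7 ± 8.67 CPM (log2 fold change -0.99 by edgeR, adjusted p = 0.000382), with every aged mouse below every young mouse. Hipk2, a kinase that phosphorylates p53, had the smallest p-value of the list (log2 fold change -0.93 by edgeR, adjusted p = 4.65e-06). Mdm4 and Hipk2 were called in all 9 other settings and in all 12 fits with a mouse left out.

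Of 17 tested cyclin and CDK genes 3 were called higher and 2 lower (29.4% called), with a median of 0.06. Ccnd2, which encodes cyclin D2, rose from 11.6 ± 4.12 to 26.2 ± 14.8 CPM (log2 fold change 1.20 by edgeR, adjusted p = 0.00604), and Ccnd3 from 711 ± 55.0 to 845 ± 89.4 CPM (0.25, edgeR adjusted p = 0.0190). Ccnd3 was not called after the length correction (0.18, edgeR adjusted p = 0.0782) or with the replicate block. Cdk6 fell from 20.3 ± 1.14 to 13.8 ± 2.22 CPM (log2 fold change -0.55 by edgeR, adjusted p = 0.000978) without overlap between the ages, and is also on the progenitor marker list. Cdc25b and Cdc25a, phosphatases that activate CDKs, moved in opposite directions, at log2 values of 0.69 for Cdc25b (adjusted p = 0.000663) and -0.54 for Cdc25a (edgeR adjusted p = 0.00274). Cdk4 (0.02, adjusted p = 0.944) and Cdk2 (-0.05, edgeR adjusted p = 0.732) were not called, and the sign of Cdk4 turned with limma-voom, without TMM factors, with thinned libraries and after the length correction. Ccnd1 had too few counts for the test, with 1.29 ± 0.843 CPM in aged and 0.356 ± 0.162 in young mice (SD, n = 6 each, exact permutation p = 0.00433).

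Downstream of Rb1, 2 of 19 tested pocket protein and E2F genes were called higher and 4 lower (31.6% called), with a median of -0.16. Rbl1 and Rbl2, the other pocket proteins, had log2 fold changes of -0.30 (adjusted p = 0.0982) and -0.12 (edgeR adjusted p = 0.281), and that of Rbl2 was 0.06 after the length correction. Rbl1 was called without aged replicate 1 or 7. Mybl2, a transcription factor of the cell cycle, and E2f8, a repressive E2F, fell by 0.76 log2 units (adjusted p = 0.00623) and 0.72 (edgeR adjusted p = 0.00337). The call of Mybl2 was lost with the replicate block. The histone-binding protein gene Rbbp4 rose by 0.33 log2 units (edgeR adjusted p = 0.00565), and Lin37 of the DREAM repressor rose by 0.29 log2 units (edgeR adjusted p = 0.0425), which turned to -0.07 after the length correction and was not called on library totals without TMM factors, with no filter, on thinned libraries, with the replicate block or in 7 of 12 fits with a mouse left out. Of 16 tested E2F and S phase targets 2 were called lower and 0 higher (12.5% called), with a median of -0.12. These were Mki67, a proliferation marker, which fell from 398 ± 188 to 98.8 ± 39.2 CPM (SD, n = 6 each, log2 fold change -2.01, edgeR adjusted p = 0.000134), and Top2a, the topoisomerase of dividing cells (-0.62, edgeR adjusted p = 0.0315). Top2a was not called in 6 of 12 fits with a mouse left out or after the length correction (-0.41, edgeR adjusted p = 0.121). The other 14 were not called.

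Genes that control the turnover or transcription of Cdkn1a and Cdkn1b were called higher for 3 and lower for 4 of 18 tested (38.9% called, median -0.09). Skp1a and Rbx1, subunits of SCF ubiquitin ligases, rose by 0.55 log2 units (adjusted p = 0.000673) and 0.54 (edgeR adjusted p = 0.00226), and Cops5, a subunit of the COP9 signalosome that promotes export of p27Kip1, rose by 0.49 log2 units (edgeR adjusted p = 0.000624). Skp2, the SCF subunit that recognises p27Kip1, had 5.16 ± 2.25 CPM in aged and 7.36 ± 2.04 in young mice (log2 fold change -0.54 by edgeR, adjusted p = 0.116) and was called without aged replicate 1. Klf4, a transcription factor that acts on Cdkn1a, fell by 1.13 log2 units (edgeR adjusted p = 0.0428), a call that 7 of 12 fits with a mouse left out did not keep, nor did upper quartile factors, the length correction or the replicate block.

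Regulators of the Cdkn2a and Cdkn2b locus, mostly Polycomb genes, were called higher for 1 and lower for 5 of 19 tested (31.6% called, median -0.17). The lower calls ran from 4 to 8 with a mouse left out and from 2 to 9 in the other settings. Phc3, a subunit of Polycomb repressive complex 1, fell from 79.9 ± 7.09 to 46.6 ± 2.04 CPM (log2 fold change -0.78 by edgeR, adjusted p = 4.92e-06) without overlap, and was at -0.17 (edgeR adjusted p = 0.0524) after the length correction. Id2, which opposes ETS and E-protein factors, rose from 63.4 ± 5.92 to 106 ± 19.5 CPM (log2 fold change 0.74 by edgeR, adjusted p = 0.000155). Of 16 tested senescence and secretory genes 2 were called higher and 5 lower (43.8% called, median -0.03). Icam1, an adhesion molecule, rose by 1.04 log2 units (adjusted p = 0.00175) and Glb1, which encodes the lysosomal galactosidase stained in senescent cells, rose by 0.43 log2 units (edgeR adjusted p = 0.0382). The chemokine gene Ccl3 fell by 1.15 log2 units (adjusted p = 0.00654), and Plaur, the urokinase receptor, fell by 0.39 log2 units (edgeR adjusted p = 0.000604). The call of Ccl3 was lost with the replicate block. Glb1 was called in 3 of 12 fits with a mouse left out and Icam1 in 12 of 12. The call of Glb1 was also lost without TMM factors, after the length correction and with the replicate block.

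Cdkn1c lies in the imprinted Kcnq1 domain, where 8 genes were tested, 1 called higher and 3 lower (50% called, median -0.18). Kcnq1ot1, the non-coding transcript that silences the paternal copy of Cdkn1c, fell from 32.4 ± 8.70 to 8.58 ± 1.51 CPM (SD, n = 6 each, log2 fold change -1.92, edgeR adjusted p = 4.65e-06), and was at -0.02 (edgeR adjusted p = 0.927) after the length correction. At 83437 exon bases, against a median of 2890, its correction rested largely on shorter genes. The part of length in its fall was not tested. Cd81, a tetraspanin gene of the domain, rose by 0.52 log2 units (edgeR adjusted p = 0.000798). Nap1l4, Tnfrsf23, Tssc4 and Ascl2 were not called, with log2 fold changes of 0.11, -0.04, -0.13 and -0.32 and adjusted p of 0.153 to 0.829 (edgeR), and Tssc4 was called only after the length correction (-0.37, edgeR adjusted p = 0.0388).

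**Figure D5:**
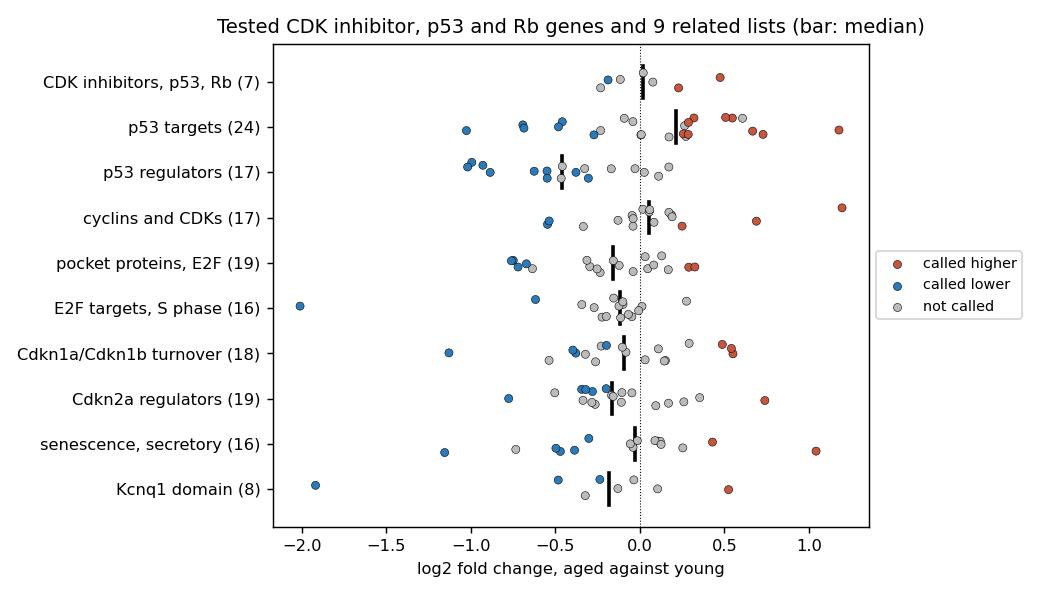
Log2 fold change (aged against young) of every tested gene among the 10 and in 9 lists of partners, regulators and targets, with red for genes called higher, blue for genes called lower, grey for genes not called, a bar at each median and the number of tested genes in parentheses. The medians lie between -0.46 for p53 regulators and 0.22 for p53 targets, and the lowest points are Mki67 at -2.01 and Kcnq1ot1 at -1.92.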

How the data were processed

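RNA of bone marrow cells sorted as M-MDSCs from 6 aged and 6 young male mice was sequenced in pairs of reads from stranded TruSeq libraries on a NovaSeq instrument. The authors deposited raw counts of fragments per gene without normalization, made with featureCounts 2.0.0 on exons of a UCSC annotation of mm10. Per the file headers, both ends had to align to 1 chromosome on the reverse strand with a mapping quality of at least 60, which lowers counts of genes with near-identical copies. The aligner was not given in the sources used here. Age was taken from the labels, and all 12 count columns were matched by name.

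Counts were tested with edgeR 4.0.16 in R 4.3.3 (filterByExpr with a minimum count of 10, TMM, quasi-likelihood test, Benjamini-Hochberg adjustment over 9742 genes), the study having used DESeq2. CPM use TMM-scaled totals, and log2 CPM for correlations used a prior count of 2. Genes under the filter were compared by exact permutation of mean CPM and by exact conditional intervals of the ratio of summed counts, which at 95% cover counting error only. p-values over mice measure the spread between these 12 libraries. The closest pair of libraries of 1 age differed by a chi-square of 1.72 per gene, so none was counted as a duplicate. The alternatives were DESeq2 1.42.0, limma-voom (limma 3.58.1), library totals without TMM factors, upper quartile factors, no filter, at least 10 counts in every mouse, thinning to the smallest total, a lowess correction for gene length (span 0.3), each mouse left out and a replicate block. The scripts were tested on simulated data. The 10 genes and the lists were chosen with earlier results of these data known. Genes named from a list were its largest rise, largest fall and smallest p-value among called genes, members not called or against the majority where these were 5 or fewer, and 14 fixed genes such as Mdm4, Cdk4 and Mki67. Top2a and single marker genes were named after their values were seen.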

Additional observations from a re-analysis of the deposited data

Results flagged for a closer look

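Within an age, 20 groups of 6 mice were checked for 1 mouse far from the others. A mouse was flagged where its distance from the nearest other mouse took more than 0.625 of the whole range. This is Dixon's critical value, which chance exceeds in about 1 in 20 groups of normally distributed values. The rate does not hold for groups of few counts with ties, such as those of Cdkn2a and Cdkn2b. Cdkn2a in aged replicate 7 stood apart at 0.313 CPM, from 5 counts, with the other 5 aged mice at 0, so its distance was the whole range. Cdkn2b in aged replicate 4 stood apart at 0.32 CPM, from 3 counts, with 0.637 of the range. Trp53 in young replicate 10 stood apart at 20.2 CPM, from 171 counts, with 0.627 of the range. No explanation of these values was tested.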

How the results depend on the processing

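The higher level of Cdkn2d kept its direction in all 9 alternatives and in all 12 fits with a mouse left out (0.42 to 0.52), and its call in all of these other than the length correction. Counts limit Cdkn2a, Cdkn2b and Cdkn1c, where the shallower young libraries read 3 counts as up to 0.642 CPM. The causes of the shifts below were not tested. The length correction was not run for genes under the filter.

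Of the 10 genes, 2 were called higher and 1 lower, which became 1 and 2 without TMM factors, 2 and 0 with upper quartile factors, 1 and 0 without a filter, 0 and 0 after the length correction, 1 and 0 with the replicate block, and 1 to 2 and 0 to 1 with each mouse left out. Of all genes tested, 45.6% were called without TMM factors, 46.3% with upper quartile factors and 28.2% without a filter. The share was 34.8% after the length correction and 35.1% with the replicate block. Without TMM factors log2 fold changes were 0.14 for Cdkn1b, -0.0143 for Cdkn2c, -0.0591 for Trp53, -0.0657 for Cdk4 and -0.20 for Mdm2, which was then called, and 1682 of all genes were called higher and 2762 lower in place of 2185 and 2240. After the length correction they were 0.18 for Cdkn1b, -0.25 for Cdkn2c, 0.21 for Cdkn2d, -0.11 for Trp53, -0.0233 for Rb1, -0.0715 for Lin37, 0.00315 for Tnfrsf23, 0.0602 for Rbl2 and -0.24 for Cdk4. Without a filter Cdkn1b was at 0.22 (edgeR adjusted p = 0.0598) and Rb1 at -0.19 (edgeR adjusted p = 0.0633), and with upper quartile factors Rb1 was at -0.15 and Wrap53 at 0.00673. Cdk4 was at -0.0337 with limma-voom and -0.0312 with thinned libraries. The difference of mean CPM was 0.402 for Cdkn1c (exact permutation p = 0.0455) and 0.0011 for Cdkn2a with upper quartile factors, and 0.128 for Cdkn1c (exact permutation p = 0.297) and 0.0048 for Cdkn2a with thinned libraries, against 0.387 for Cdkn1c as reported.

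The 4 replicate numbers that both ages share did not pair the mice (same-numbered deviations correlated at -0.22 to -0.15, and no mouse correlated best with its own number). In the replicate block of those 8 mice log2 fold changes were 0.27 for Cdkn1b, -0.0538 for Cdkn2c, -0.25 for Rb1, 0.0574 for Tnfrsf23 and 0.11 for Ascl2, and 3446 genes were called in all in place of 4425. The block left out 4 mice and added a term at once. Plk3 (-0.996, edgeR adjusted p = 0.146), Mybl2 (-0.76, edgeR adjusted p = 0.0966), Ccl3 (-0.77, edgeR adjusted p = 0.229) and Ccnd3 (0.27, edgeR adjusted p = 0.121) were not called with it.

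Called genes of a list changed by over 1.5 times as follows. After the length correction 4 p53 regulators and 1 E2F target were called lower, 5 turnover genes were called higher and 2 lower, 2 Cdkn2a regulators higher and 3 lower, and 1 senescence gene higher and 3 lower. With the replicate block 1 pocket protein and E2F gene was higher and 2 lower, 2 turnover genes and 2 Cdkn2a regulators lower, and 1 senescence gene higher and 3 lower. Without TMM factors 1 pocket protein and E2F gene and 1 senescence gene were higher and 9 Cdkn2a regulators lower. Without a filter 1 pocket protein and E2F gene and 4 senescence genes were higher, and with DESeq2 5 senescence genes. With thinned libraries 1 pocket protein and E2F gene was higher and 2 turnover genes and 3 senescence genes lower. With upper quartile factors 2 turnover genes and 3 senescence genes were lower, and 3 senescence genes with limma-voom and with at least 10 counts in every mouse.

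Over the 12 fits that omitted 1 mouse, the log2 fold change ranged from 0.19 to 0.28 for Cdkn1b, -0.21 to -0.15 for Rb1, -0.0440 to 0.0925 for Trp53, 0.0122 to 0.139 for Cdkn2c, -0.147 to -0.0889 for Mdm2, -0.0989 to 0.0372 for Cdk2, -0.106 to 0.0943 for Cdk4, -0.0970 to 0.0297 for Tnfrsf23 and -0.0891 to 0.0440 for Wrap53. The difference of mean CPM was 0.299 to 0.489 for Cdkn1c and -0.0526 to 0.0318 for Cdkn2a. Lower calls were 1 to 3 among E2F targets, 2 to 5 among turnover genes, 4 to 8 among Cdkn2a regulators and 3 to 5 among senescence genes. Higher calls were 0 to 1 among p53 regulators and among E2F targets, 1 to 2 among pocket protein and E2F genes and 1 to 2 among senescence genes.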
